A study of Mus musculus with 2 samples.

Results

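The adipocyte genes described here are 10 genes that are widely used to recognise fat cells: Adipoq, Lep, Retn, Cfd, Plin1, Plin4, Cidec, Pparg, Fabp4 and Car3. They were found by symbol, and all 10 matched 1 gene each among the 55536 annotated genes of the tables. Their RNA was measured by total RNA-seq of the gastrocnemius, the large calf muscle, of B6CASTF1/J mice, a hybrid of C57BL/6J and CAST/EiJ strains. There was 1 group of 2 libraries, replicate 1 and replicate 2, from males aged 10 days with no treatment labelled, each made from 300 ng of RNA with ERCC spike-in RNAs. The labels give each replicate its own animal number but both the same donor code, so the spread between them may be partly technical. With 1 group of 2 libraries no gene could be tested, and an exact test could not give a two-sided p below 0.5.

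Adipocytes store triglyceride in a large droplet, whose surface is coated by perilipins and CIDE proteins, and release hormones called adipokines. PPARγ, a nuclear receptor that pairs with RXR, is the central regulator of fat cell formation and switches on many of the other genes listed here. Skeletal muscle holds fat cells between its fibres, and several adipocyte genes are also active in other cells of muscle: Car3 in slow fibres, Fabp4 in capillary endothelium and Plin4 in muscle fibres. In bulk tissue, fewer cells of a type and less RNA per cell cannot be told apart.

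Levels between genes are compared in TPM, a relative abundance that divides by transcript length, as deposited in the gene tables. Positions are on mm10. The libraries held 38874862 and 38160786 expected counts, of which the 10 genes took 0.0786% in replicate 1 and 0.0924% in replicate 2. The 15 genes of a fast muscle fibre list, which mark the labelled tissue but are not all sarcomeric, summed to 116106 and 116510 TPM. The 10 adipocyte genes summed to 551 and 647 TPM. The 8 skin epithelium markers summed to 8.07 and 7.97 TPM, nearly all of it from Trp63 at 5.12 and 4.92 TPM and Krt10 at 2.80 and 2.94 TPM. The basal keratin genes Krt5 and Krt14 were at 0.03 and 0.02 TPM in replicate 1 and at 0.00 in replicate 2.

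The upstream sequences of 4 start sites are shown first, those with a match to a searched motif in the printed stretch. The Pparg start sites also belong to transcripts described below. They were taken from RefSeq (assembly GRCm38.p6), which held 11 upstream windows for 8 of the 10 genes and none for Car3 and Fabp4. Each is written 5′ to 3′ on the plus strand, which is the strand of these 3 genes, and stops before the first annotated exon. Capitals mark matches to the motifs searched for on both strands. The windows are chr16:23146286-23146535 for Adipoq, chr6:29059971-29060219 for Lep, chr6:115362099-115362291 for the Pparg start at 115362349 and chr6:115421816-115422065 for that at 115422066. Of the Pparg transcripts, Pparg-206 starts at 115362349, and the first of these windows ends just before the start of Pparg-204 at 115362292. Pparg-201 starts at 115422066.
Adipoq: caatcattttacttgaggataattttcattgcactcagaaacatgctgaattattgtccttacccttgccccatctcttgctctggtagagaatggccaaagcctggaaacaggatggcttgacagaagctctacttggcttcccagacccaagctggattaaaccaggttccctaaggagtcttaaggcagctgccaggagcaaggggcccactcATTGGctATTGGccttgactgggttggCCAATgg
Lep: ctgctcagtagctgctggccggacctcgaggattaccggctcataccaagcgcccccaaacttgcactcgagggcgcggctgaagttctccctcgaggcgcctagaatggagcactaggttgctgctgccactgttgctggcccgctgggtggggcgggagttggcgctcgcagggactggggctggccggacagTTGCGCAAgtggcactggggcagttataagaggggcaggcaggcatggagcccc
Pparg, start at 115362349: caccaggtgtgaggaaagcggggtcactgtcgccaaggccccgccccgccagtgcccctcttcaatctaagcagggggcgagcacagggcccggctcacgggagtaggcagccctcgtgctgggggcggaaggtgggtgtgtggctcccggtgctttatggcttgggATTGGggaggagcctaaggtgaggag
Pparg, start at 115422066: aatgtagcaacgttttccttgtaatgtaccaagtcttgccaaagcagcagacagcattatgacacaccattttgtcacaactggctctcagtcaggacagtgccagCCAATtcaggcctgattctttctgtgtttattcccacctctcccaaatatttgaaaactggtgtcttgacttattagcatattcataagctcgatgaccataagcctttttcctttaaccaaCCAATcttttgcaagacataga

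The searched motifs were the PPAR response element AGGTCANAGGTCA, its repeated unit AGGTCA (contained in the former), the C/EBP palindrome TTGCGCAA, the CCAAT box CCAAT and the TATA box TATAAA, each within 250 bases before the start site. The PPAR response element matched 0 of the 11 windows, and 0.0335% of 32851 mouse promoter windows of the same length held it. The C/EBP palindrome matched the Lep window, 55 bases before the start site, against 0.164% of all windows. CCAAT matched 4 of the 11 windows, 1 each of Adipoq and Plin4 and 2 of Pparg, against 33.8% of all windows. In the Adipoq window it occurred 3 times, at 34, 27 and 7 bases before the start, of which the first pair lies on the minus strand. The unit AGGTCA matched 2 windows, both of Pparg (14.0% of all windows), and TATAAA matched 1 (12.4%), all in stretches that are not printed. A match describes letters only, and no binding was measured here.

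Car3, Fabp4 and Plin4 were the 3 most abundant of the genes and held 523 of the summed 551 TPM in replicate 1 and 620 of 647 TPM in replicate 2. The other 7 genes, which include the adipokines, summed to 27.8 and 27.0 TPM. These 7 had 1147 and 993 expected counts. Over all 10 genes the median level was 5.60 ± 1.00 TPM (SD, n = 2), and 8 of the 10 reached 1 TPM in both libraries. The lowest of these 8, Pparg at 2.25 TPM, ranked 9874th of 22028 protein-coding genes by mean TPM. Lep, at 0.685 TPM, ranked 12134th. A mean of 1 TPM thus lay between these ranks, so many genes reached it.

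**Figure D1:**
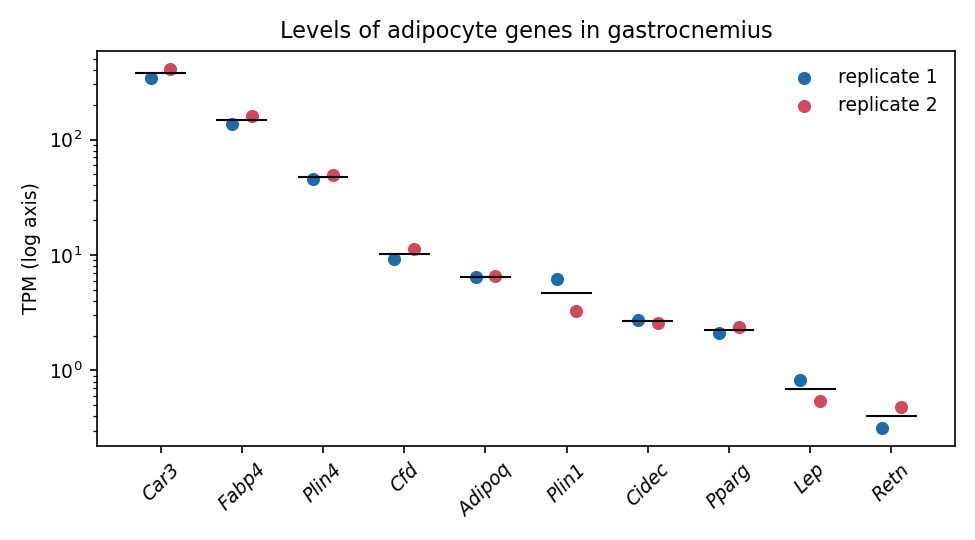
TPM of each adipocyte gene (y axis, log scale) in replicates 1 and 2 (points), with the mean of both as a bar, ordered by mean. Car3, Fabp4 and Plin4 stand above 45 TPM in both replicates, the other genes at or below 11.24 TPM, and the points of Plin1 are furthest apart for its level.

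Cfd, Adipoq, Lep and Retn encode secreted proteins, and of these 4 Cfd had the highest level. Cfd encodes adipsin, the complement factor D protease, and lies on chromosome 10 (79890853 to 79892655, plus strand). Its levels in replicates 1 and 2 were 9.16 and 11.24 TPM, or 10.2 ± 1.47, and ranked 4951st of 22028 protein-coding genes by mean TPM. Replicate 2 was the higher, with 298 expected counts against 241.

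Adipoq encodes adiponectin, a hormone made almost only by fat cells, on chromosome 16 (23146536 to 23158028, plus strand). It had 6.42 and 6.51 TPM, or 6.46 ± 0.0636, from 218 and 205 counts, and the replicates were nearly level. The second deposited transcript table, made separately from the reads, gave Adipoq 13.7 and 8.24 TPM, so there replicate 1 was the higher. The tables also differed in how they split the gene. The full-length Adipoq-201 (247 residues) took 80.6% and 70.5% of the gene's TPM in the first and 49.8% and 74.9% in the second, the rest being the shorter Adipoq-202.

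Lep, the gene of the satiety hormone leptin, lies on chromosome 6 (29060220 to 29073877, plus strand) and had 0.83 and 0.54 TPM, or 0.685 ± 0.205. Its counts, 53 and 47, were closer than its TPM. The gap lay mostly in the short Lep-202, which was assigned 41.7% of the gene's TPM on 3.59 counts in replicate 1 and 16.7% on 0.940 counts in replicate 2. The full-length Lep-201 had 0.48 and 0.45 TPM, which are nearly level.

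Retn, which encodes resistin, had the lowest level of the 10, at 0.32 and 0.48 TPM (0.400 ± 0.113), from 8 and 12 counts. It lies on chromosome 8 (3655770 to 3660110, plus strand). At this depth 3 counts on Retn correspond to 0.120 TPM in either library, so the gene was detected in both but a difference between them was not detectable.

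Plin1, Plin4 and Cidec encode droplet proteins, and of these 3 Plin4 had the highest level. Plin4 encodes perilipin 4, which coats small and nascent droplets, on chromosome 17 (56100591 to 56109803, minus strand). It had 45.05 and 48.95 TPM, or 47.0 ± 2.76, from 8264 and 8990 counts. It overlaps Hdgfl2 on the opposite strand, which had 1020 and 1019 counts. The strand setting of the counting is not known here, and reads of the overlap cannot be told apart. The first table put all of Plin4 on Plin4-202, while the second gave that transcript 58.2% and 43.3% and the rest to Plin4-201. These transcripts are 5756 and 5755 bases long and share a coding length of 4209 bases.

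Plin1 encodes perilipin 1, the main droplet coat of mature white fat cells and the gatekeeper of lipolysis, on chromosome 7 (79720218 to 79732903, minus strand). Its level was 6.19 TPM in replicate 1 but 3.27 in replicate 2, or 4.73 ± 2.06, from 373 and 195 counts. It was the gene with the widest relative spread among those averaging 20 counts or more. Of its 7 transcripts Plin1-206, which encodes the full 517 residues, was the main one, with 57.1% and 51.4% of the gene's TPM. Its own counts, 311 and 148, moved with those of the gene. The second table gave Plin1 388 and 209 counts, again higher in replicate 1.

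Cidec encodes a droplet fusion protein that gives white fat cells their single large droplet, on chromosome 6 (113424634 to 113435760, minus strand). It had 2.74 and 2.60 TPM, or 2.67 ± 0.0990, from 127 and 108 counts. Replicate 1 was slightly higher. Cidec-202 was the main transcript with 84.6% and 63.7%, and Cidec-203, which starts further downstream, took 2.92% and 36.3%. In the second table Cidec-203 took 10.4% and 27.0%, so its share was higher in replicate 2 in both.

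Pparg lies on chromosome 6 (115360951 to 115490399, plus strand), 1.93 Mb from Cidec. It had 2.13 and 2.38 TPM, or 2.25 ± 0.177, from 127 and 128 counts, and the replicates were level in counts. Its antisense gene Gm44079 had 0 counts in both libraries. Compared per length, the related receptor gene Ppard exceeded Pparg 6.29-fold in replicate 1 and 5.02-fold in replicate 2, while Pparg and Ppara were close, with a ratio of Pparg over Ppara of 1.00 and 0.812.

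The Pparg counts were assigned mostly to transcripts that start upstream. The gene has alternative start sites: the upstream ones give PPARγ1, which many tissues make, and the downstream one, whose window is printed above, gives the longer PPARγ2, which is typical of fat. Pparg-202 starts at 115360951 and Pparg-204 at 115362292, and both encode 475 residues. They took 38.0% and 62.0% of the gene's TPM in replicate 1 and 29.5% and 56.1% in replicate 2. Pparg-201, which starts at 115422066 and encodes 505 residues, had 0 counts in both libraries of the first table. In the second table it had 0 counts in replicate 1 and 8.99 counts, or 7.45%, in replicate 2. Such counts are estimates that divide reads shared among transcripts, so a 0 sets no firm upper limit. There Pparg-202 took 65.4% and 77.3%, while Pparg-204 took 12.4% and 0%. Pparg-207, a shorter form, took 22.2% and 0%. The split among upstream transcripts therefore depended on the table, and the PPARγ2 transcript was at 0 in 3 of the 4 values.

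**Figure D2:**
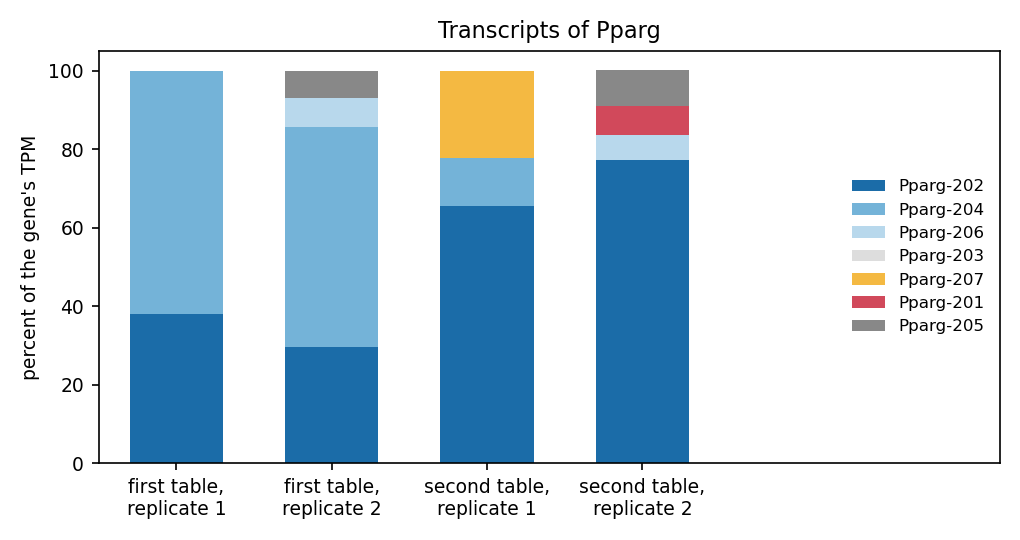
Share of the Pparg TPM (y axis, percent) taken by each transcript (colours) in both replicates of both transcript tables (bars). Pparg-202 and Pparg-204, which encode the 475-residue form, together take most of each bar, but Pparg-204 leads in the first table and has 12.4% and 0% in the second. Pparg-201, which encodes the 505-residue form, appears in 1 bar only, at 7.45%.

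Fabp4 and Car3 encode cytosolic proteins and lie on chromosome 3, 4.65 Mb apart. Fabp4, the fatty acid carrier of fat cells (10204088 to 10208576, minus strand), had 137.10 and 160.85 TPM, or 149 ± 16.8, and ranked 375th of the protein-coding genes. Replicate 2 was the higher, with 4292 counts against 3709. Fabp3, the carrier of heart and muscle, exceeded it per length 1.87-fold and 2.13-fold, and Fabp4 exceeded Fabp5 by 7.87-fold and 7.45-fold.

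Car3 encodes carbonic anhydrase III, an enzyme abundant in slow muscle fibres as well as fat (14863512 to 14872523, plus strand). It had 340.73 and 410.53 TPM, or 376 ± 49.4, from 17431 and 21004 counts, and ranked 138th. Replicate 2 was again the higher. Car3 exceeded Car14, the highest of 15 other carbonic anhydrase genes by mean TPM, 14.1-fold and 17.9-fold, and it exceeded Adipoq 53.1-fold and 63.1-fold (31.9-fold and 63.1-fold in the second table). Car3-201 made up 99.3% and 99.2% of the gene's TPM.

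In the order of levels the ranges of the replicates did not overlap for any of the 9 neighbouring pairs, which with 2 libraries is only a description. The difference of the means was no larger than the spread for 2 pairs. Adipoq exceeded Plin1 by 1.73 TPM and Plin1 exceeded Cidec by 2.06 TPM, against an SD of Plin1 of 2.06. The second table gave the same order by mean, but there the ranges of Adipoq (8.24 to 13.7 TPM) and Plin1 (5.69 to 11.3 TPM) overlapped.

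Between the replicates the 10 genes did not move together. The log2 ratio of replicate 2 over replicate 1, after TMM scaling, was above 0 for 5 and below 0 for 4 of the 9 genes that averaged 20 counts or more, where 53.3% of 13137 protein-coding genes were above 0 and 46.7% below. The median over the 9 was 0.08, against 0.01 over all those genes. None of the 9 differed 2-fold or more, which 0.655% of all genes did towards replicate 1 and 0.426% towards replicate 2. Retn stayed out of these counts, with a ratio of 0.63 and an interval from -0.76 to 2.15. Intervals here are 95% exact binomial intervals and cover counting error only.

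The interval lay wholly above 0 for 4 of the 9, which was so for 19.1% of all genes. These were Cfd at 0.38 (0.13 to 0.63), Car3 at 0.34 (0.31 to 0.37), Fabp4 at 0.28 (0.22 to 0.34) and Plin4 at 0.19 (0.15 to 0.23). All 4 were thus modestly higher in replicate 2, and 3 of them are the most abundant genes. The interval narrows with the count, so an abundant gene leaves 0 at a smaller ratio.

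Plin1 was the only gene of the 9 with an interval wholly below 0, which was so for 13.2% of all genes. Its ratio was -0.86 (-1.12 to -0.61), or 1.82-fold higher in replicate 1 (1.53 to 2.18). It ranked 15th from the lowest of 10967 protein-coding genes that averaged at least 100 counts. Of the 4389 genes averaging 100 to 500 counts, a range chosen after its value was seen, 12, Plin1 included, had a ratio at or below it. The absolute ratio was at most 0.47 for 95% of the 4389. The second table gave -0.79. Among the 9, several other fat cell genes of low level had ratios nearer 0, with intervals that included 0. Adipoq had -0.02 (-0.30 to 0.26), Cidec -0.16 (-0.55 to 0.22), Lep -0.10 (-0.70 to 0.49) and Pparg 0.08 (-0.28 to 0.45). These intervals are wide, and differences of up to about their bounds would not have been detectable. Cfd, also of low level, lay on the other side of 0 from Plin1, at 0.38 (0.13 to 0.63). The ratio of Plin1 over Adipoq was 0.964 and 0.502, against 0.822 and 0.691 in the second table.

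**Figure D3:**
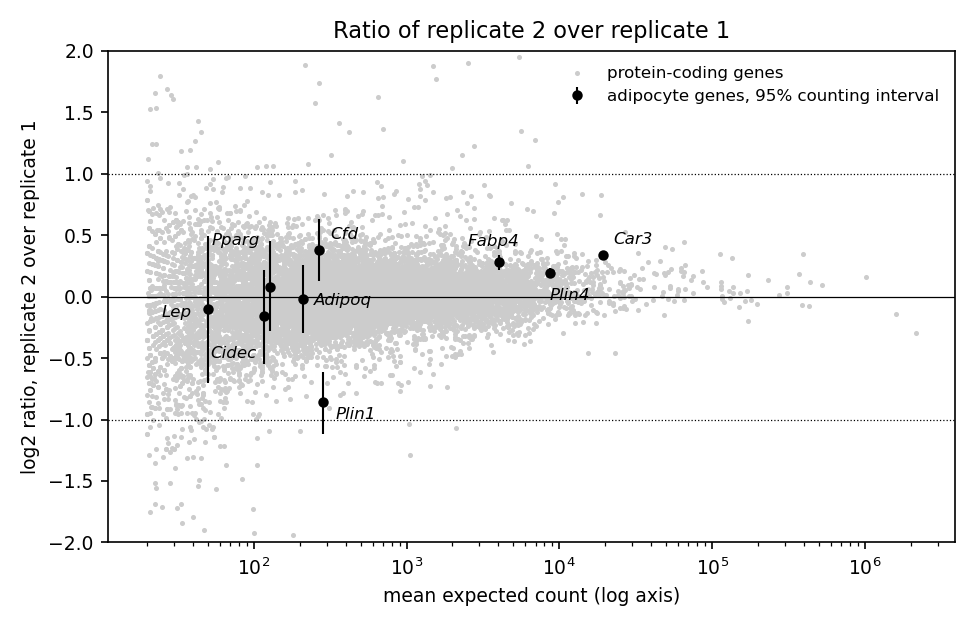
Log2 ratio of replicate 2 over replicate 1 (y axis) against the mean expected count (x axis, log scale) for protein-coding genes (grey) and for 9 adipocyte genes (black, with 95% counting intervals). Dotted lines mark 2-fold, and 32 grey points lie outside the y axis; Plin1 at -0.86 is the lowest of the 9 and Cfd at 0.38 the highest.

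The ratio closest to the median of the 9 genes was found for Dcaf11, Gatad2a, Hspa9, Zfp84 and Bmp2k, each at 0.08. Likeness was the absolute difference of log2 ratios over 2 libraries, and 527 genes lay within 0.01 of that median, so it singles out no gene.

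The other genes of fat cells and of lipid handling were described from lists. Beside the list counts, 19.1% of all genes had an interval wholly above 0 and 13.2% wholly below. A ratio above 0 was found for 53.3% of all genes. All 16 adipogenic transcription factor genes reached 1 TPM in both libraries. At least 9874 of 22028 protein-coding genes reached that level by mean TPM. Of the 16, 8 had a ratio above 0 and 8 below, with a median of 0.02. The interval was wholly above 0 for 5 and wholly below for 2. Cebpb, which acts early in fat cell formation, had 27.37 and 40.47 TPM and a ratio of 0.64 (0.53 to 0.74). Klf4, which acts upstream of Cebpb, had the largest ratio of the list, 0.79 (0.66 to 0.92). Rxra, the partner of PPARγ, was lower in replicate 2, at -0.26 (-0.33 to -0.19).

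Genes of the droplet and of lipolysis are described next, and then those of lipid synthesis. Of 15 measured droplet and lipolysis genes 11 had a ratio above 0 and the median was 0.13, with 8 intervals wholly above 0 and 1 wholly below. The 1 below was that of G0s2, at -0.51 (-0.80 to -0.23), of the same sign as Plin1. Plin5, the droplet protein of oxidative tissue, had 8.15 and 12.27 TPM and a ratio of 0.66 (0.50 to 0.83), opposite in sign to Plin1. Fitm1, a droplet formation gene of muscle and the highest of the list at 189.75 and 197.49 TPM, had 0.13 (0.07 to 0.18). Pnpla2, the first lipase of triglyceride breakdown, had 0.34 (0.27 to 0.40), and Plin2, the droplet coat of most cells, had 0.12 (0.00 to 0.25). Plin2 exceeded Plin1 per length 4.79-fold in replicate 1 and 10.1-fold in replicate 2. Of 17 measured synthesis genes 11 had a ratio below 0 and the median was -0.11. The interval was wholly below 0 for 7 and wholly above for 4. Pck1, which makes glycerol phosphate precursors in fat, had the largest ratio of the list, with 7.40 and 4.18 TPM and a ratio of -0.78 (-0.98 to -0.59). Gpd1, at 198.82 and 175.01 TPM, had -0.11 (-0.14 to -0.08), while Gpam, which starts triglyceride assembly, had 0.15 (0.11 to 0.19).

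All 12 uptake genes were higher in replicate 2 by their counting intervals, with a median ratio of 0.26, against 19.1% of all genes. Most of the 12 are abundant, and an abundant gene leaves 0 at a smaller ratio. Fabp3 had 255.93 and 342.58 TPM and a ratio of 0.49 (0.44 to 0.54). Cd36, the fatty acid translocase, had 0.14 (0.10 to 0.19), and Cav1, which forms caveolae, had 0.23 (0.19 to 0.27). Fabp4 and Car3 had ratios within the range of this list.

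Further adipocyte markers also lay on both sides of 0. Of 18 measured genes 8 had a ratio above 0 and 10 below, with a median of -0.07 and summed levels of 393 and 374 TPM. The interval was wholly above 0 for 5 and wholly below for 4. Those above included Aqp7 at 0.30 (0.06 to 0.55) and Dgat2 at 0.24 (0.05 to 0.42). Those below included Scd1 at -0.49 (-0.58 to -0.41) and Trarg1 at -0.54 (-1.05 to -0.05). The list shares Gpd1, Plin2 and others with the lists above, so it is not independent of them. Lgals12, a galectin of fat cell droplets, had the largest ratio, -0.58 (-1.36 to 0.16), on 41 and 26 counts.

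The defining gene of brown fat was not detected, but several other genes of the brown and beige list were. Ucp1, the uncoupling protein of brown fat, had 0 counts in both libraries, where 3 counts would be 0.0602 and 0.0601 TPM. The brown and beige list still summed to 505 and 603 TPM, of which Cox8b, a respiratory chain gene that muscle also makes, held 426.86 and 524.80. Of the 15 matched genes of the list 9 reached 1 TPM in both libraries, a level that at least 9874 of 22028 protein-coding genes reached by mean TPM. Among the 9, Cidea had 1.40 and 1.64 TPM and Prdm16 had 1.15 and 1.67 TPM. Besides Ucp1, Dio2 (0.92 and 0.84 TPM), Kcnk3 (0.51 and 0.56) and Otop1 (0.20 and 0.18) stayed below 1 TPM. So did Elovl3, with 0 and 2 counts, and Cpn2, with 1 and 2 counts, both below the floor of 3 counts. Which cells these genes come from was not tested. For Cox8b the first table gave a ratio of 0.37 and the second -0.28, which leaves no clear direction.

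Genes of the adiponectin receptors and binding partner had higher levels than Adipoq. Adipor1, a receptor of adiponectin, had 49.89 and 51.56 TPM, 7.77-fold and 7.92-fold the level of Adipoq (5.14-fold and 8.77-fold in the second table). Cdh13, which binds adiponectin at the cell surface, had 70.20 and 63.56 TPM, and Adipor2 had 23.93 and 22.87 TPM. Their ratios were 0.12 (0.07 to 0.18), 0.00 (-0.05 to 0.06) and 0.02 (-0.05 to 0.10). Of the 16 measured genes of the list 13 had a ratio above 0, with a median of 0.16, and 7 had an interval wholly above 0.

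Markers of other cell types differed between the same libraries. Over all genes, 19.1% had an interval wholly above 0 and 13.2% wholly below. All 11 listed slow fibre genes had an interval wholly above 0, with a median of 0.54 and summed levels of 1676 and 2239 TPM. Of 12 endothelial markers 10 had one, with a median of 0.20 and sums of 269 and 285 TPM. Of 10 mural cell markers 9 had one and 1 had an interval wholly below 0, with a median of 0.20. Schwann cell markers went the other way, with a median of -0.12 and 5 of 10 intervals wholly below 0, while 12 macrophage markers had a median of 0.08. Slow fibres and endothelium are known sources of Car3 and Fabp4, whose ratios were 0.34 and 0.28. The part of these cells in the ratios of Car3 and Fabp4 was not tested. Markers of fibro-adipogenic progenitors, the cells that form fat in muscle, had a median of 0.00, with 8 of 16 above 0 and sums of 945 and 901 TPM. Their most abundant genes were Dlk1 at 329.18 and 321.48 TPM, Dcn at 232.47 and 201.55 TPM and Col15a1 at 141.22 and 148.45 TPM.

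**Figure D4:**
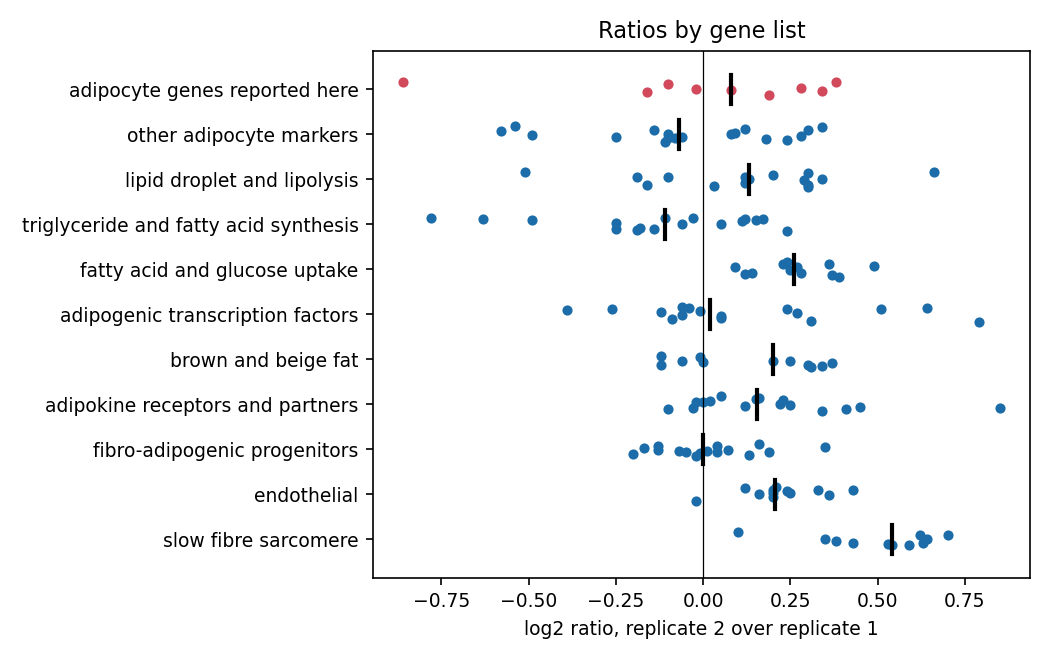
Log2 ratio of replicate 2 over replicate 1 (x axis) for each gene averaging 20 expected counts or more (points) in the adipocyte genes described here and in 10 further lists, with the median as a bar. The adipocyte genes spread from -0.86 to 0.38 around a median of 0.08, while all slow fibre and uptake genes lie above 0.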

How the data were processed

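Total RNA-seq of 2 libraries was used. For each, the deposited tables of genes and of transcripts give expected counts and TPM, and the deposited transcript tables the percent of a gene's TPM that each transcript takes, in the column layout of RSEM. Per the file headers and notes, they rest on alignments to the mm10 transcriptome and the GENCODE M21 annotation. A second deposited transcript table, laid out as by kallisto, gives estimated counts and TPM. The aligner, its version and the strand setting were not given in the sources used here. TPM was scaled over all features, so it depends on the other RNAs, and reads of CAST/EiJ alleles were mapped to mm10.

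Symbols were matched through the second table. Expected counts, rounded, were scaled with TMM (edgeR 4.0.16, R 4.3.3) over endogenous genes averaging at least 10 counts, and the ratio used a prior count of 0.5. Summaries took genes averaging at least 20 counts, and 3 counts were taken as the floor. Reads carry no molecular identifiers, so intervals cover counting error only. Of the list symbols 2 (Tusc5 and Gyk) were unmatched. The remaining work was done in Python 3.11.15 with pandas 2.3.3, numpy 2.4.6, scipy 1.17.1 and matplotlib 3.10.9, and the ratio was tested on simulated data.

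The genes and lists were chosen with earlier results of these data known. Named are the 10 genes, up to 3 of each list by mean TPM and the 1 with the largest ratio, the 5 genes nearest in ratio, and transcripts with 5% or more of a gene. A gene that the rule names is not reported here. Krt5, Krt14, Ucp1, Cidea, Prdm16, G0s2, Scd1, Trarg1, Hdgfl2, Gm44079, Ppara, Fabp5 and transcripts below that share were named besides, after their values were seen. So were Dio2, Kcnk3, Otop1, Elovl3, Cpn2, Aqp7 and Dgat2. The rule also covers genes over 2-fold higher in replicate 1, which include none of the 10 and are not given. Alternatives were DESeq2 1.42.0 size factors, library and spike-in totals, posterior mean counts, the second table, other filters and prior counts, means for medians, leaving out genes, and leaving out each replicate.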

Additional observations from a re-analysis of the deposited data

How the results depend on the processing

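The median log2 ratio of the adipocyte genes, 0.08, stayed 0.08 with DESeq2 size factors, posterior mean counts and a prior count of 2. It was 0.04 with library totals, 0.05 with spike-in totals, 0.07 in the second table, 0.14 with a mean count of 100 or more and also 0.14 with no filter, and 0.01 as a mean. Without Car3 and Fabp4 it was -0.02, and without Car3, Fabp4 and Plin4, a choice made after their levels were seen, -0.06, so its sign depended on the most abundant genes. The count of genes 2-fold or more lower in replicate 2 was 0 under each of the 9 alternatives run. Over all genes the share with a ratio below 0 was 46.7%, 56.9% with library totals and 54.3% with spike-in totals. All 60 alternative ratios of single genes kept their sign. The median level, 5.60 TPM, was 9.74 in the second table, 12.7 over nuclear protein-coding genes alone and 59.9 as a mean, and leaving out each replicate gave 4.89 to 6.30. Leaving out a replicate gives no ratio. Of 40 alternative levels of single genes 20 moved by more than the SD. These were all of those in the second table and over nuclear protein-coding genes, and the latter rescales all genes of a library alike. The other 20 left out a replicate and could not move, because either of 2 values lies within the SD of their mean. Of 10 alternative shares of the leading transcripts 7 moved by more than the SD. Depth limits Retn, Lep and the transcript shares of Pparg, Cidec and Lep most, which rest on few counts. No paired analysis was possible because there was only 1 group.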
